A study of Ovis aries with 6 samples.

Results

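The fibrillar collagen chains COL1A1, COL1A2, COL3A1 and COL5A2 were measured in cultured sheep (Ovis aries) cells by 10 of the 15008 gene probes of an Agilent array, 4 of the 925 genes to which a symbol could be given. Of these, 8 were found because the array's gene name or description names the chain, and 2 because the gene name is a RefSeq gene ID of COL1A2 or COL3A1. COL1A1, COL1A2 and COL5A2 had 2 probes each and COL3A1 had 4, every one printed once per array. The study compared corneal epithelial cells, from the surface of the eye, with skin epidermal stem cells, progenitors of the skin's keratinocytes. Each kind had 3 samples, called cell lines in the design text, and 1 single-colour (Cy3) array per sample. All 6 were adherent cultures lifted with trypsin before total RNA was extracted, and the labels give no treatment, genotype or age of the animals. The question is which transcripts differ between the 2 kinds of cells.

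Fibrillar collagens are the rope-like proteins of connective tissue. Each chain is secreted as a procollagen with glycine at 1 position in 3 of a long repeat, which lets chains wind into a helix, and enzymes then trim, stack and crosslink the molecules into fibrils. COL1A1 and COL1A2 encode the chains of type I collagen, the main fibril protein of skin and cornea. COL3A1 encodes the only chain of type III collagen, a partner of type I in skin and vessel walls, and COL5A2 encodes a chain of type V collagen, which sits inside type I fibrils and limits their width. Fibroblasts are their usual source, and epithelial cells are known for making mainly other collagens.

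In corneal cells the chains moved in different directions. COL3A1 fell by every one of its 4 probes, with log2 changes of −5.33 to −4.51 (22.8-fold to 40.2-fold lower), while both COL5A2 probes rose, by 1.47-fold and 1.67-fold. The type I chains changed far less than COL3A1. COL1A1 was 1.46-fold lower by one probe and, at the edge of the test, 1.18-fold lower by the other. COL1A2 was 1.20-fold lower by one probe and did not pass the test by the other. Within an array, the ratios of COL3A1 to the other chains were lower in every corneal array than in any epidermal one, and those of COL5A2 to the type I chains were higher.

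The 4 members whose 60 bases carry the glycine repeat are shown because they lie in the part of the message that encodes the helix and can be recognised as collagen coding sequence by their letters alone. They are printed 5′ to 3′ as on the array, with the glycine codons (GGN) in capitals, 6 or 7 in each, and are named by chain and probe.
COL1A2 A_70_P024221: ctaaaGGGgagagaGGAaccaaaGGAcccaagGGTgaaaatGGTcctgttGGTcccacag
COL3A1 A_70_P024476: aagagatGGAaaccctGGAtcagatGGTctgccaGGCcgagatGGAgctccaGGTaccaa
COL3A1 A_70_P048191: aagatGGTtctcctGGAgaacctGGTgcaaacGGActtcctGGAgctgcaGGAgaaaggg
COL3A1 A_70_P006991: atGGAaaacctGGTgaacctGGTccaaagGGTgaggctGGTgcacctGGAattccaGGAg

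A probe was said to carry the repeat when every 3rd codon of a reading frame without stop codons was GGN over the whole probe. As listed, 24 of the 15008 probes did (0.16%), and 0 did on the other strand. The repeat makes collagen genes alike. The longest run of bases shared by probes of different chains was 8 of 60, over 36 pairs, and 9 for probes of the same chain. Probes were compared with each other and not with the messages of other chains, so these runs do not measure binding to another chain. The part of cross-hybridization between chains in the values was not tested.

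Across the 6 arrays, 11091 to 11539 gene spots were well above background in corneal samples and 11785 to 12414 in epidermal samples, and 0 spots were saturated. The 6 arrays shared 1 slide, with corneal samples in its row 2 and epidermal samples in its row 1, so an effect of the row and one of the cell type cannot be told apart. Nothing says that samples of a kind came from separate animals, so the p-values rest on a spread between samples that may be only technical. Against the labels, keratinocyte markers with a probe were dim or undetected in corneal and epidermal cells alike. Of 4 keratinocyte markers with a probe, KRT14 was well above background on 0 corneal and 2 epidermal arrays and TP63 on 0 arrays of either kind. KRT15 and DSP were above background on 1 corneal and 3 epidermal arrays each, with a summed processed intensity of 21.3 to 25.6 in corneal and 30.6 to 33.8 in epidermal arrays. Of 3 corneal epithelium markers with a probe, KRT19 was above background on 0 arrays of either kind, while PAX6 and ALDH1A1 were above it on all 6. The 5 measured mesenchymal markers, VIM and DCN foremost, summed to 622090 to 634520 in corneal and 647740 to 755970 in epidermal arrays, and their part in the collagen results was not tested. In bulk samples, fewer cells of a type and less RNA per cell cannot be told apart.

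All 10 probes were well above background on all 6 arrays, so each has a measured value in both kinds of cells. Values are normalized log2, the log2 processed intensity minus the array's 75th percentile, and changes are corneal minus epidermal with the SE of a limma fit over 11740 probes and Benjamini-Hochberg adjusted p. By that test 7 of the 10 were lower in corneal cells and 2 higher. Of all probes tested, 33.4% were lower and 26.4% higher, 59.8% in either direction. For all 10 the corneal and epidermal arrays did not overlap, as held for 67.9% of all probes. The median change was −0.41 over the 10 probes and −0.05 over all.

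COL1A1, the chain present in every type I molecule, was bright in both kinds of cells. Probe A_70_P001991 read 6.55, 6.53 and 6.58 in corneal arrays, against 6.98, 7.16 and 7.15 in epidermal arrays. The corneal values lay close together, all under the lowest epidermal value. COL1A1 fell by 0.55 ± 0.06 (SE; limma adjusted p = 0.000492).

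The other COL1A1 probe, A_70_P016376, is annotated to a sheep alpha 1 precursor record. It read 2.15, 2.06 and 2.15 in corneal arrays, against 2.21, 2.52 and 2.35 in epidermal arrays. Its change was −0.24 ± 0.08 (limma adjusted p = 0.0497), at the edge of the test. The groups did not overlap, with 2.15 and 2.21 as the nearest corneal and epidermal values, and the epidermal arrays were the more scattered. The call ended in 12 of 17 alternative settings, 5 of which left out 1 array: corneal replicate 1, 2 or 3 (adjusted p = 0.0905, 0.132 and 0.0915) or epidermal replicate 2 or 3 (0.074 and 0.107). The 2 COL1A1 probes changed by amounts that differed by 0.30, with no overlap between groups (two-sided exact permutation p = 0.1, the lowest value open to 3 arrays against 3).

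COL1A2, the other type I chain, read 7.11, 7.12 and 7.18 in corneal arrays and 7.18, 7.27 and 7.23 in epidermal arrays with probe A_70_P059826. The highest corneal and the lowest epidermal value met at 7.18. Its change of −0.09 ± 0.04 did not pass (limma adjusted p = 0.0923), and its direction depended on the scaling: it was 0.0058 under quantile normalization, 0.0096 in the authors' deposited log2 values and −0.25 without scaling. The last of these passed as lower (adjusted p = 0.0125), while the median change of all probes was then −0.22.

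The glycine repeat probe of COL1A2, A_70_P024221, had a larger change. It read 0.71, 0.76 and 0.80 in corneal arrays, against 0.99, 1.03 and 1.04 in epidermal arrays, with no overlap. COL1A2 fell by 0.26 ± 0.04 by this probe (limma adjusted p = 0.00137). The 2 COL1A2 probes differed in their change by 0.18, again with no overlap (exact two-sided permutation p = 0.1).

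COL3A1 was far lower in corneal cells by each of its 4 probes. The brightest, A_70_P001801, read 2.34, 2.29 and 2.30 in corneal arrays, against 6.75, 6.87 and 6.85 in epidermal arrays. On the linear scale these were processed intensities of 4572, 4413 and 4381 in corneal arrays, against 117930, 112561 and 112255 in epidermal arrays. The corneal intensities of this probe were still well above background. COL3A1 fell by 4.51 ± 0.04 (22.8-fold; limma adjusted p = 1.46e-07). On the epidermal arrays this probe was read from the scanner's low-gain pass and on the corneal arrays from the high-gain pass.

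The other 3 COL3A1 probes, all in the glycine repeat, were read from the high-gain pass on all 6 arrays. Probe A_70_P024476 read −2.08, −1.94 and −1.97 in corneal arrays, against 3.37, 3.02 and 3.09 in epidermal arrays. Its change was −5.16 ± 0.10 (35.7-fold lower; limma adjusted p = 1.03e-06). Probe A_70_P048191 read −2.92, −2.96 and −2.87 in corneal arrays, against 2.73, 2.15 and 2.37 in epidermal arrays.

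With a change of −5.33 ± 0.15 (40.2-fold lower; limma adjusted p = 3.16e-06), A_70_P048191 showed the largest fall of the 10 collagen probes. In both of these probes epidermal replicate 1 was the highest array, and the epidermal arrays were more scattered than the corneal ones. Probe A_70_P006991 read −3.34, −3.39 and −3.44 in corneal arrays, against 1.35, 1.44 and 1.37 in epidermal arrays. Its change was −4.78 ± 0.04 (27.4-fold lower; limma adjusted p = 1.28e-07). Ranked by fitted change among all 11740 probes, the 4 COL3A1 probes were the falls of rank 19, 23, 37 and 39. Changes of at least 2-fold that passed the test were 7.75% of all probes, and such falls 4.29%. The fall passed in all 17 or 18 alternative settings of each probe, with changes between −5.50 and −3.90 over the 4.

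The 4 COL3A1 probes did not give the same size of fall. Between pairs of them the change differed by 0.17 to 0.82 on the log2 scale. The pair A_70_P024476 and A_70_P048191 differed least (0.17, with overlapping arrays, exact two-sided permutation p = 0.2), and the other 5 pairs did not overlap (p = 0.1 each).

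COL5A2, the type V chain, was higher in corneal cells by both probes. Probe A_70_P027811 read 5.87, 5.81 and 5.81 in corneal arrays, against 5.15, 5.07 and 5.07 in epidermal arrays, and rose by 0.74 ± 0.04 (1.67-fold; limma adjusted p = 2.84e-05). Probe A_70_P050651 read 3.90, 3.88 and 3.92 in corneal arrays, against 3.35, 3.33 and 3.36 in epidermal arrays, and rose by 0.55 ± 0.03 (1.47-fold; adjusted p = 2.89e-05). Every corneal value was above every epidermal one in both. Neither reached a 2-fold change, which 3.46% of all probes did as a rise that passed. In the RefSeq annotation of the sheep assembly ARS-UI_Ramb_v3.0, COL5A2 and COL3A1 are neighbours with 0 annotated genes between them, and the pair changed in opposite directions.

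**Figure D1:**
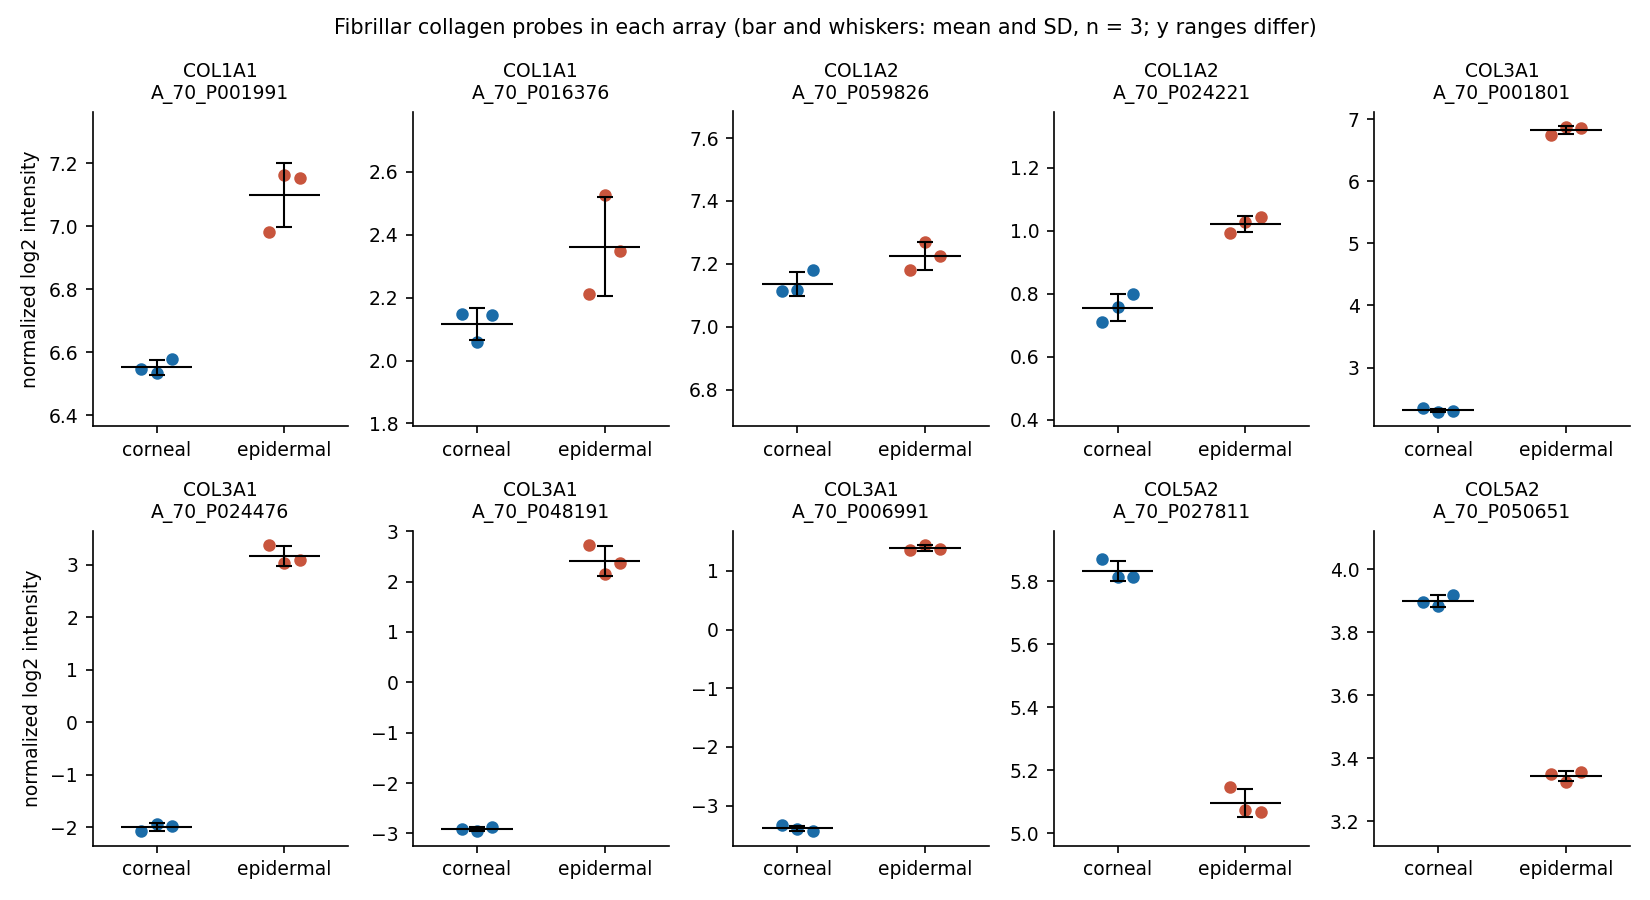
Normalized log2 intensity of each collagen probe (y axis; its range differs between panels, and none is under 1 log2 unit) in corneal arrays (left, blue) and epidermal arrays (right, red). Points are arrays, and the bar and whiskers are the mean and SD (n = 3). The 4 COL3A1 panels show changes of −5.33 to −4.51, the COL5A2 panels have the corneal arrays on top, and the COL1A2 probe A_70_P059826 has groups that meet at 7.18.

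**Figure D2:**
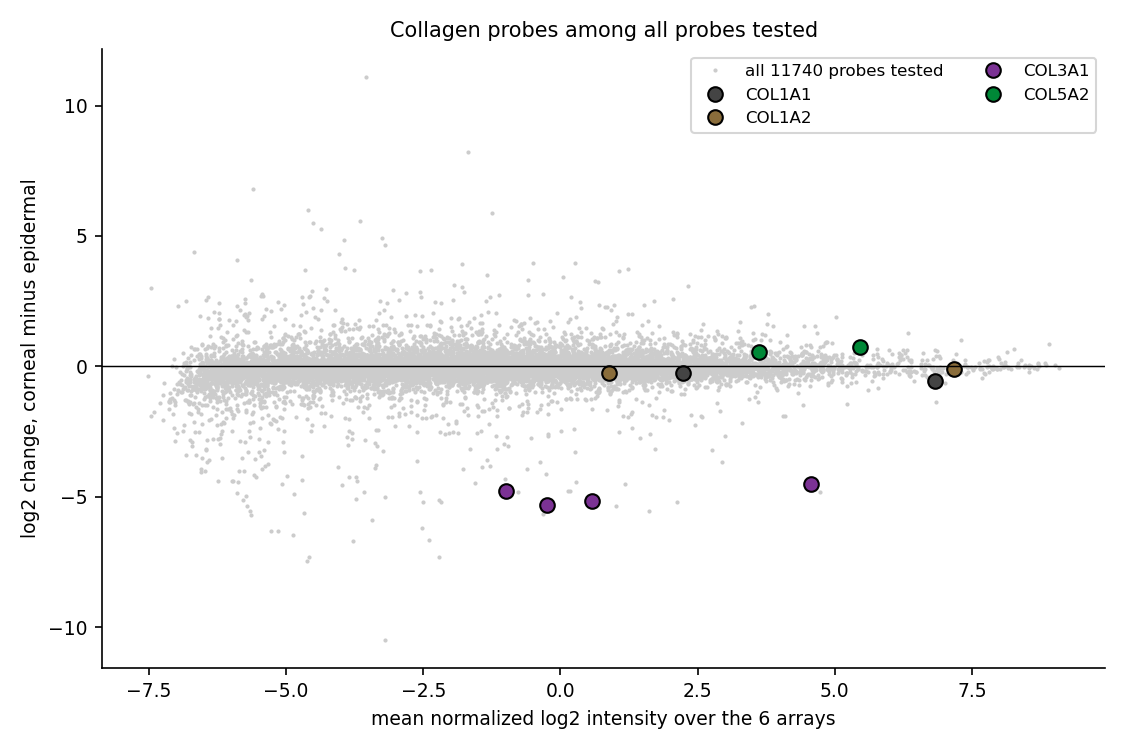
Log2 change, corneal minus epidermal (y axis), against the mean normalized log2 intensity over the 6 arrays (x axis) for 11740 probes (grey), with the 10 collagen probes in colour. The COL3A1 probes lie between −5.33 and −4.51, below nearly all probes, and the other 6 lie between −0.55 and 0.74.

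Ratios between chains were taken within each array, where the scaling of an array cancels, with the brightest probe of each chain. The level of such a ratio depends on the probes, so only its change between the 2 kinds of cells is read, and a ratio shows unequal change and not which chain moved. The COL1A1, COL1A2 and COL5A2 probes used here were read from the low-gain pass on all 6 arrays. The COL3A1 probe was read from that pass on the epidermal arrays alone. A difference in scale between the passes would not cancel in the COL3A1 ratios, and its part was not tested. The remaining COL3A1 probes and the dimmer probe of each other chain were read from the high-gain pass on all 6 arrays. Between those probes, the COL3A1 ratios changed by −5.08 to −4.53 to COL1A1, −5.06 to −4.51 to COL1A2 and −5.88 to −5.33 to COL5A2. The log2 ratio of COL3A1 to COL1A1 was −4.21, −4.25 and −4.28 in corneal arrays, against −0.24, −0.29 and −0.30 in epidermal arrays. The ratio was 15.6-fold lower in corneal arrays with COL1A1 as the partner and 21.5-fold lower with COL1A2.

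The COL3A1 to COL5A2 ratio had the largest difference of the 6. It was −3.53, −3.53 and −3.51 in corneal arrays, against 1.60, 1.80 and 1.78 in epidermal arrays, a change of −5.25 ± 0.06 (SE), or 38.1-fold. The ratios of COL5A2 to both type I chains were higher in corneal arrays. Its log2 ratio to COL1A1 was −0.67, −0.72 and −0.76 in corneal arrays, against −1.84, −2.09 and −2.09 in epidermal arrays, a change of 1.28 ± 0.09 or 2.43-fold. Relative to COL1A2 it changed by 0.82 ± 0.06, or 1.77-fold.

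Within type I, the COL1A1 to COL1A2 ratio was −0.57, −0.58 and −0.60 in corneal arrays, against −0.20, −0.11 and −0.07 in epidermal arrays, a change of −0.46 ± 0.04. None of the 6 ratios overlapped between groups, and each had an exact two-sided permutation p of 0.1, the smallest possible here, or 0.1 after Benjamini-Hochberg adjustment over the 6. With every other choice of probes the changes kept their sign for the 5 ratios that involve COL3A1 or COL5A2. They ran from −5.08 to −3.97 for COL3A1 to COL1A1, from −5.24 to −4.25 for COL3A1 to COL1A2 and from −6.07 to −5.07 for COL3A1 to COL5A2, over 8 pairs of probes each. The COL5A2 ratios ran from 0.80 to 1.28 to COL1A1 and from 0.64 to 1.00 to COL1A2, over 4 pairs each. The COL1A1 to COL1A2 change ran from −0.46 to 0.02 over 4 pairs, of which 2 overlapped between groups, so its direction rested on the probes chosen.

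**Figure D3:**
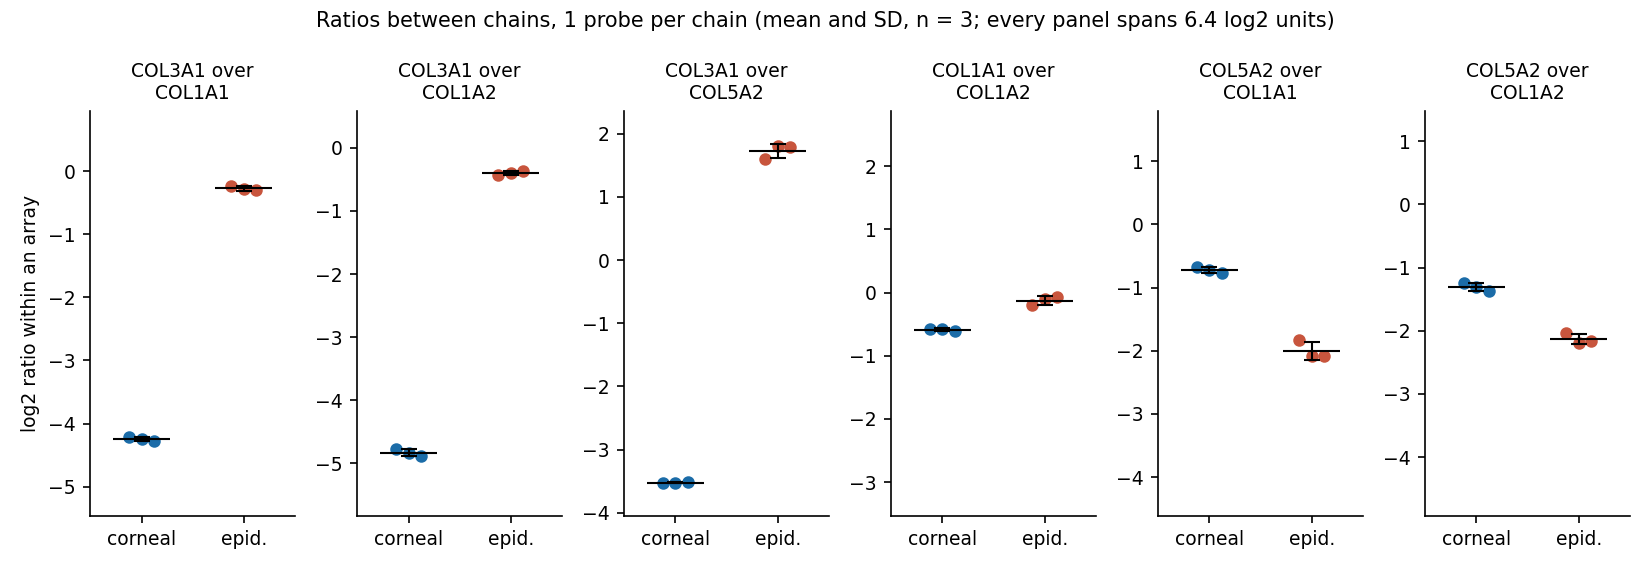
Log2 ratio of 2 chains within an array (y axis), by the brightest probe of each, in corneal (left, blue) and epidermal arrays (right, red), with mean and SD (n = 3). Each panel spans 6.4 log2 units, so the 3 COL3A1 ratios show changes of −5.25 to −3.97 beside −0.46 for COL1A1 over COL1A2 and 0.82 and 1.28 for COL5A2 over the type I chains.

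Probes outside the members, tied to these collagens by annotation alone, gave further values. These sets were formed after values were seen. Of 7 such probes, 6 carry an accession or transcript cluster in common with a member, and 1 is described only as collagen 1 and names no chain. None was linked to COL5A2. The 2 linked to COL3A1 changed by −5.21 ± 0.09 (A_70_P047726, limma adjusted p = 8.24e-07) and −4.42 ± 0.21 (A_70_P048049, adjusted p = 2.19e-05).

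Probe A_70_P047726 read −0.51, −0.45 and −0.49 in corneal arrays, against 4.93, 4.61 and 4.63 in epidermal arrays. Both COL3A1-linked probes thus changed by amounts near those of the 4 COL3A1 members. The 2 linked to COL1A1 changed by −0.29 ± 0.03 (A_70_P021711, adjusted p = 0.000436) and −0.30 ± 0.08 (A_70_P047991, adjusted p = 0.0245), and the 2 linked to COL1A2 by −0.22 ± 0.04 (A_70_P059701, adjusted p = 0.00398) and −0.26 ± 0.06 (A_70_P059786, adjusted p = 0.0108). The collagen 1 probe changed by −0.40 ± 0.04. All 7 were lower in corneal cells and passed, as did 33.4% of all probes tested. With normexp background correction, the collagen 1 probe and those linked to COL1A1 or COL1A2 did not pass (limma adjusted p = 0.677 to 0.993). That setting called 426 of all 11740 probes. The call of A_70_P047991 ended without corneal replicate 1 or 2 (adjusted p = 0.0515 and 0.0736) and without epidermal replicate 3 (0.0608).

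The glycine repeat gave a grouping that uses letters alone. All 24 probes with the repeat were measured. Of these, 19 were lower in corneal cells, 0 were higher and 5 did not pass, where 33.4% of all probes tested were lower and 26.4% higher. The 24 include 4 members and some of the related probes above, so the count partly repeats those results. The 5 named for or linked to COL3A1 changed by −5.33 to −4.42, while the other 19, which include 4 probes named COL2A1, COL4A1 or COL4A2 and the COL1A2 probe printed above, changed by −0.68 to −0.0048. A change of the size seen for COL3A1 was thus not shared by the other repeat-bearing probes.

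**Figure D4:**
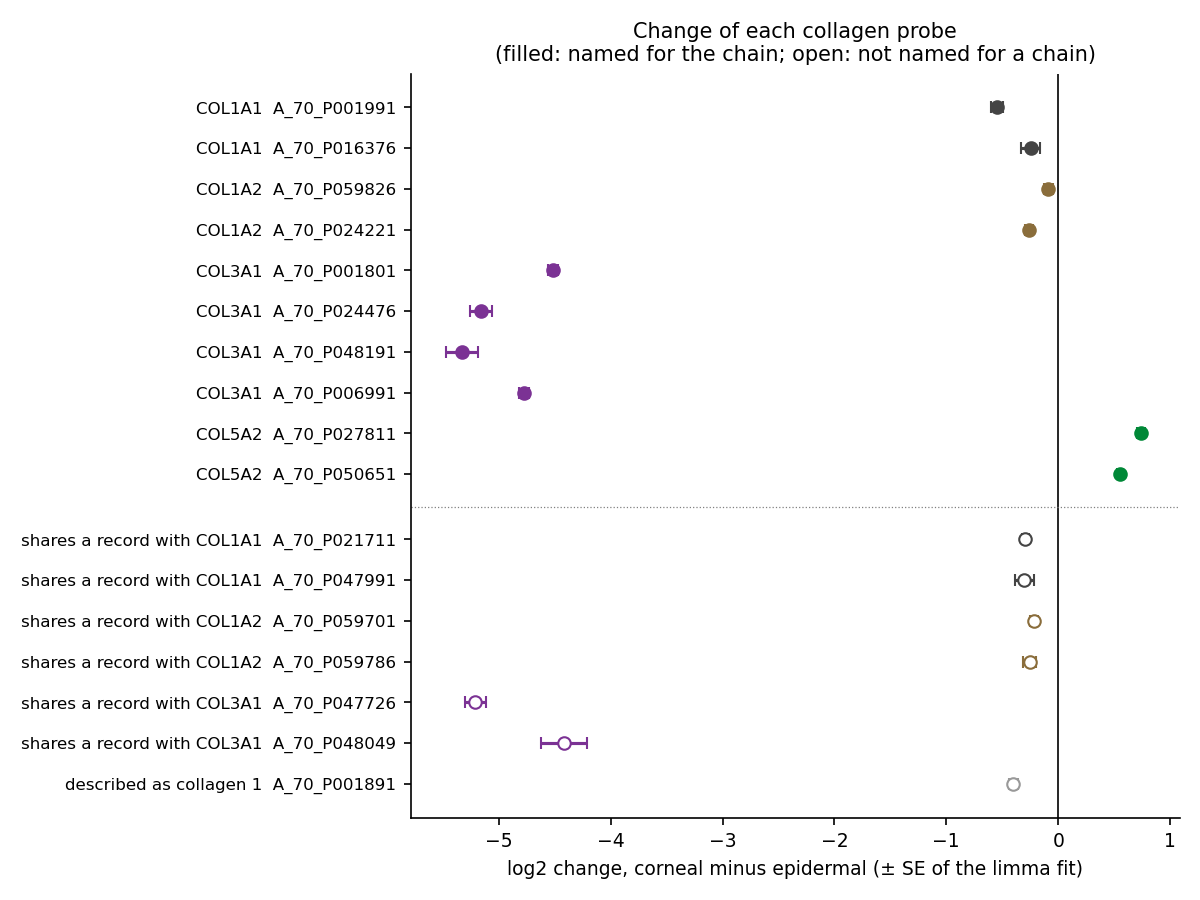
Log2 change, corneal minus epidermal (x axis), with its SE, of the 10 probes named for a chain (filled, above the dotted line) and of 7 related probes (open, below it). The COL3A1 members and the 2 probes linked to COL3A1 lie between −5.33 and −4.42, the COL5A2 probes are at 0.55 and 0.74, and the rest lie between −0.55 and −0.09.

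Genes were ranked by how near their profile over the 6 arrays lay to that of each chain's brightest probe. Among 687 other genes with a symbol, likeness was measured as the root mean square difference of values centred on each gene's mean. The nearest to COL3A1 were ALDH1A1, a retinaldehyde dehydrogenase, at 0.178, XDH, xanthine dehydrogenase, at 0.318 and HOXA5, a positional transcription factor, at 0.526. ALDH1A1 fell by 4.84 ± 0.05 and XDH changed by −5.11 ± 0.07 (adjusted p = 3.87e-07), and HOXA5 was not well above background on any corneal array. COL1A1 was nearest to FGF7, a growth factor of fibroblasts for epithelium (0.0393), the endothelin receptor EDNRA (0.0411) and the growth factor receptor PDGFRA (0.0489). COL5A2 was nearest to the thymidylate synthase TYMS (0.0395), the prostaglandin transporter SLCO2A1 (0.0415) and CALML4 (0.049). COL1A2, whose profile was nearly flat, was nearest to the ribosomal protein RPL10 (0.0187), the lens protein CRYAA (0.0213) and SFXN1 (0.027). For genes of small change, a small difference also follows from a flat profile.

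Other collagens with a named probe were few. Here each gene is represented by its brightest probe, and of 691 genes with a symbol 63.7% were called, 27.4% as higher and 36.3% as lower in corneal cells. Of 2 other fibrillar chains measured, COL2A1, the collagen of cartilage, fell by 0.25 ± 0.04 from a dim level (limma adjusted p = 0.00312). With normexp background correction that leaves out spots of extreme background its change was −0.0034 and did not pass. COL5A1, the partner of COL5A2 in type V collagen, averaged 1.30 ± 0.05 in corneal and 1.28 ± 0.14 in epidermal arrays (SD, n = 3). Its change of 0.02 ± 0.08 did not pass (adjusted p = 0.842), while its dimmer probe rose by 0.35. The rise of COL5A2 was thus not matched by the brightest COL5A1 probe, and the difference between them was not tested. Of 4 measured collagens outside the fibrillar class, 2 were higher and 2 lower. COL6A3, of the beaded filaments around cells, fell by 1.48 ± 0.08 (2.79-fold; adjusted p = 3.29e-05). The basement membrane chains COL4A1 and COL4A2 changed by −0.22 and 0.14, and COL12A1, which coats fibrils, by 0.14, the last pair turning to −0.028 and −0.022 without scaling. The 4 COL4A2 probes ran from −0.16 to 0.14, and the brightest, which stands for the gene here, was the highest of them and the one that passed. All 3 calls ended without corneal replicate 1 or 2 or epidermal replicate 1 (adjusted p = 0.0545 to 0.108 over every such loss). Without corneal replicate 3, COL4A2 and COL12A1 also lost theirs, as did COL4A1 and COL4A2 without epidermal replicate 3 and COL12A1 without epidermal replicate 2.

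Genes of procollagen modification and folding were divided. Of 9 measured, 2 were higher, 4 lower and 3 did not pass, with a median change of −0.16, against −0.08 over the 691 genes. Among those 691, 27.4% were higher and 36.3% lower. PPIB, a prolyl isomerase that helps the helix fold, rose by 0.44 ± 0.04 and PLOD1, a lysyl hydroxylase, by 0.41 ± 0.03. CALR, HSPA5 and PDIA6, chaperones of the endoplasmic reticulum, fell by 0.66, 0.31 and 0.30. P4HB, a subunit of prolyl hydroxylase, changed by 0.10 and did not pass (adjusted p = 0.0562).

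Among 12 measured genes of propeptide cleavage, crosslinking and fibril assembly, 4 were higher and 6 lower, with a median of −0.22. The shares over the 691 genes were 27.4% higher and 36.3% lower. BGN, a small proteoglycan that binds collagen, rose by 1.31 ± 0.06, THBS2, which affects fibril form, by 0.99 ± 0.03 and FN1, the fibronectin on which fibrils are laid down, by 0.95 ± 0.03. On the other side, FBLN2 and FBLN1, fibulins of the matrix, fell by 2.99 ± 0.12 and 1.83 ± 0.04. POSTN, a matrix protein that binds type I collagen, was well above background on 0 corneal arrays and at least 59.9-fold lower there, the bound being the epidermal mean over the higher of the probe's own corneal signal and the lowest signal well above background.

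Breakdown genes went both ways: of 11 measured, 4 were higher and 4 lower, with a median of 0.05. Over the 691 genes 27.4% were higher and 36.3% lower. MMP1, a collagenase that cuts types I and III, rose by 1.85 ± 0.04, and TIMP3, an inhibitor of such enzymes, by 1.26 ± 0.03. MMP13, another collagenase, rose by 2.00 ± 0.22, with 2 of 3 epidermal arrays above background. CTSK, a collagen-cutting cathepsin, fell by 0.73 ± 0.04, and PLAU and its receptor PLAUR fell by 0.60 and 0.53. Of 2 measured collagen receptors, ITGB1 rose by 0.14 ± 0.03, though without scaling it was −0.02, and DDR1 did not pass.

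Of 17 measured regulators of collagen transcription, 7 were higher and 5 lower, with a median of 0.07. For all 691 genes the shares were 27.4% higher and 36.3% lower. CCN2, a matrix protein that promotes collagen output, rose by 2.02 ± 0.04, and TGFBR1 and TGFB2 of the TGF-beta pathway rose by 0.92 ± 0.11 and 0.63 ± 0.12. TGFB1, an inducer of type I collagen, fell by 0.84 ± 0.04, and YBX1, a repressor of collagen promoters, by 0.29 ± 0.05. TNF, a cytokine that lowers collagen expression, was well above background on 0 corneal arrays and at least 25.7-fold lower. These lists were chosen with earlier results of these data known, and no list was tested as a set.

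**Figure D5:**
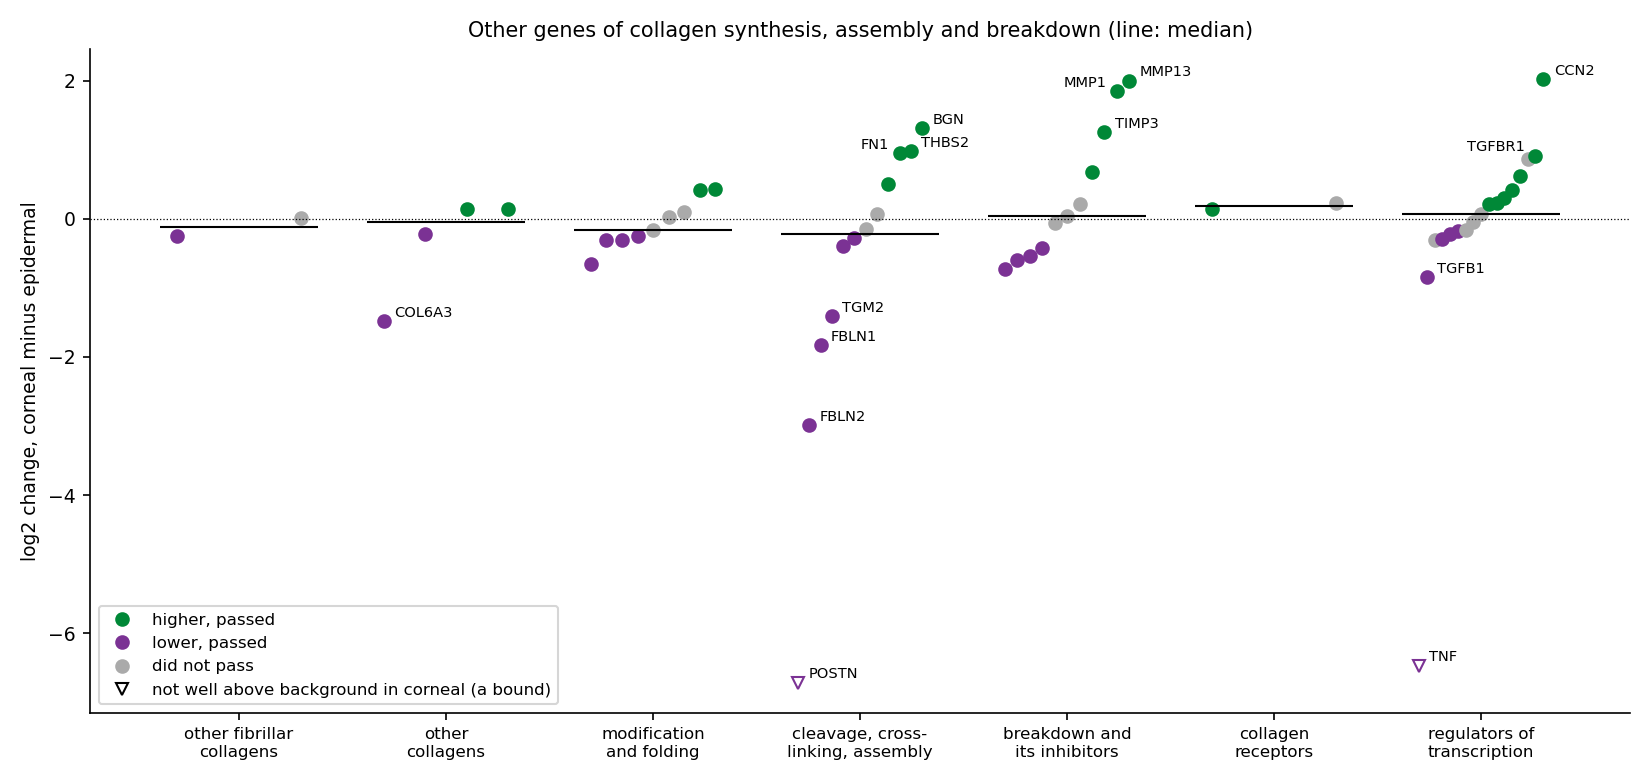
Log2 change, corneal minus epidermal (y axis), of each measured gene of 7 lists of collagen biology (x axis), by its brightest probe, with the list's median as a line. Green points passed as higher, purple as lower and grey did not pass, and open triangles, drawn at the fitted change, are genes without a corneal array well above background. Every list with over 2 measured genes has points on both sides of 0, from POSTN and TNF at the bottom to CCN2 and MMP13 at about 2.

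Markers of cell types that make fibrillar collagen, and of corneal epithelium, gave these values beside the COL3A1 fall. Of 5 measured mesenchymal markers, 0 were higher and 2 lower. VIM averaged 8.60 ± 0.02 in corneal and 8.66 ± 0.12 in epidermal arrays and DCN 8.14 ± 0.03 in corneal and 8.08 ± 0.43 in epidermal arrays (SD, n = 3), and neither passed by its brightest probe. The other DCN probe fell by 0.44 and passed. The brightest probes of VIM and DCN passed as lower without epidermal replicate 1, at −0.12 and −0.18. PDGFRA fell by 0.52 ± 0.03 and LUM, lumican, by 0.40 ± 0.04. Of 3 smooth muscle and pericyte markers, DES and CNN1 rose by 1.21 and 1.07 and MYLK fell by 3.19 ± 0.11. Of 2 measured corneal stroma markers, CD34 was well above background on 0 corneal arrays and at least 1.99-fold lower, and PTGDS did not pass. AQP1 of that list was above background on 0 corneal and 2 epidermal arrays. Of 2 measured corneal epithelium markers, PAX6 rose by 0.30 ± 0.07, a call that ended without scaling, and ALDH1A1 was lower as above. The part of cell mixture in the change of COL3A1 was not tested.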

How the data were processed

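RNA of 3 corneal and 3 epidermal samples was hybridised to 1-colour arrays, grouped and numbered by the labels. Per the submitters' processing notes, the images were read with Agilent Feature Extraction 10.7, and the deposited linear intensity is background-subtracted and detrended, per the file headers. A table of the authors' deposited log2 values, made in a way not given in the sources used here, served as an alternative. Its columns all have a median of 7.23, so it is scaled between arrays, and it correlates with the log2 intensity of its own array (r rounding to at least 0.999).

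Control spots and spots marked as outliers were left out, the latter touching 41 probes. The log2 intensity minus the array's 75th percentile was averaged over spots, and 11740 probes well above background on at least 3 of 6 arrays entered the fit in R 4.3.3 with limma 3.58.1 (lmFit, eBayes, all arrays, no block, Benjamini-Hochberg, threshold 0.05). Ratios used exact permutation tests in Python 3.11.15.

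Symbols came from the arrays' annotation and RefSeq sheep genes (ARS-UI_Ramb_v3.0, for names and neighbours alone): 1500 probes had a symbol, 13508 had none, and 925 symbols were covered, 691 of them with a tested probe. Coordinates and coding positions of the probes are not given, because no build is stated. The members and gene lists were chosen with earlier results of these data known. Named genes are all member probes, up to 3 called genes of each list in each direction, measured fibrillar chains, the brightest and the undetected markers, and the 3 genes of nearest profile per chain. Simulated data over 11740 probes had independent noise and 200 changed probes, a far smaller share than the 59.8% called in the real data. In them, 92 of 100 changes of 1 and 48 of 100 changes of 0.3 (log2) were called, and 8 of 11540 unchanged probes. These rates hold for the simulated setting alone. Alternatives were other scalings, normexp background correction (offset 50), other filters, flagged spots kept, 1 probe per gene, an intensity trend, a replicate block, each array left out, and other probes in ratios.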

Additional observations from a re-analysis of the deposited data

How the results depend on the processing

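The fall of all 4 COL3A1 probes passed in every alternative run. The planned normexp correction, in which 7 spots of epidermal replicate 1 had an extreme local background, called 426 probes in place of 7025. Under it 4 collagen probes were lower and 0 higher, with COL1A1 at −0.31 (adjusted p = 0.574), COL5A2 at 0.97 (0.0958), and the second COL5A2 and COL1A2 probes at 0.77 and −0.17 no longer passing. The COL1A2 probe A_70_P059826 turned to 0.0058 with quantile normalization, 0.15 with normexp and 0.0096 in the authors' deposited log2 values. It passed as lower without scaling (−0.25), with normexp without extreme spots (−0.10) and with an intensity trend (−0.088). Higher calls were 44.1% of all calls, but 22.5% without scaling; this setting moved the median change of all probes to −0.22. Leaving out each array gave 6186 to 6702 calls.

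The ratio changes of COL3A1 to COL1A1 and to COL1A2 were −4.02 and −4.505 under quantile normalization and −4.02 and −4.50 in the deposited values. With another probe of 1 chain they were −4.27, −4.61, −4.78 and −4.23 to COL1A1, −4.25, −5.07, −5.24 and −4.69 to COL1A2, and −5.07, −5.90, −6.07 and −5.51 to COL5A2. COL1A1 to COL1A2 gave −0.28 and −0.16 (0.02 with both probes changed), COL5A2 to COL1A1 0.98 and 1.10, and COL5A2 to COL1A2 1.00 and 0.64. Leaving out each array moved the 6 ratios by less than another probe did. They ran from −3.99 to −3.95 for COL3A1 to COL1A1, from −4.45 to −4.40 to COL1A2 and from −5.31 to −5.21 to COL5A2. COL1A1 to COL1A2 ran from −0.50 to −0.43, COL5A2 to COL1A1 from 1.24 to 1.37 and COL5A2 to COL1A2 from 0.79 to 0.87. Replicate numbers did not pair the arrays: deviations of same-numbered arrays correlated at −0.03 to 0.04. With the replicate block 6279 probes were called, 6 collagen probes lower and 2 higher, and A_70_P016376 lost its call (adjusted p = 0.103).

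Among other named genes the sign turned without scaling for COL12A1 (−0.022), COL4A2 (−0.028), COL5A1 (−0.15), DCN (−0.10) and ITGB1 (−0.023). Leaving out 1 array turned COL5A1 (−0.0056 without corneal replicate 2, and −0.059 to 0.075 over the 6 arrays left out in turn) and DCN (−0.18 without epidermal replicate 1). Under normexp it turned for DES (−0.19), MMP13 (−0.47), PAX6 (−0.26), RPL10 (0.18), SFXN1 (0.062), SLCO2A1 (−0.45), TGFB2 (−0.46), TGFBR1 (−0.0096), VIM (0.20) and A_70_P059701 (0.0028), and without the extreme spots for DSP (0.10), KRT15 (0.10) and PTGDS (0.040). KRT15 was 0.15 under quantile normalization and 0.15 in the deposited values. The cause of these turns was not tested. With 3 arrays a group, precision is limited throughout.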
